A study of Mus musculus with 24 samples.

Results

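Fam49a, Fam19a1, Tmem163 and Fgd5 are 4 protein-coding genes that were chosen by name from 4408 features counted in small RNA libraries from murine CD4+ T cells and from the extracellular vesicles (EVs) shed by them. They were picked because counts inside them stood higher in EVs than in cells of stimulated cultures, and more so than in resting cultures, so all values of the stimulated and resting groups are given here as a description, with no test. All 4 genes, like all 4408 features, had counts in all 24 libraries. Wild-type C57BL/6 mice gave the CD4+ T cells, taken from spleen and lymph nodes. The 8 groups held 3 libraries each. GW4869 EVs and GW4869 cells came from cultures stimulated for 3 days with GW4869, an inhibitor of neutral sphingomyelinase (nSMase). DMSO EVs and DMSO cells came from cultures stimulated for 3 days with the vehicle DMSO. Stimulated EVs and stimulated cells came from 3 days on plate-bound anti-CD3 (2 ug/ml) with anti-CD28 (5 ug/ml) in the medium. No antibody dose is given for the GW4869 and DMSO cultures in the sources used here. Resting EVs and resting cells came from T cells stimulated for 2 days, expanded for 1 day and kept in medium with IL2 for 2 days, so the resting cultures had been activated earlier. Whether a group's 3 libraries are from separate mice or cultures is not stated. The p-values reflect only the spread between libraries within groups, estimated from all 8 groups in 1 model. This spread may be technical, and it differed between groups.

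EVs are membrane-bound particles that carry RNA out of the cell. T cells release more of them after activation, and neutral sphingomyelinase makes the ceramide that helps some vesicles bud into endosomes. A small RNA library holds short RNAs, so a read inside a protein-coding gene is a short fragment from somewhere in that gene and not a measure of its mRNA. The 4 genes have unrelated roles. Fam49a (also named Cyria) encodes a protein that binds active Rac1 and holds back the WAVE complex, which drives branching of actin at the cell edge. Fgd5 encodes an exchange factor that activates Cdc42, another switch of the actin skeleton, and is known from endothelial cells and blood stem cells. Fam19a1 (also named Tafa1) encodes a small secreted protein of the TAFA family, known mainly from brain. Tmem163 encodes a zinc transporter first described in synaptic vesicles.

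In GENCODE M21 (GRCm38), Fam49a spans chr12:12262139-12380965 on the plus strand (119 kb). Fam19a1 spans chr6:96113154-96657198 on the plus strand (544 kb), and Fgd5 spans chr6:91978878-92076004 on the plus strand (97.1 kb). Tmem163 spans chr1:127486546-127679548 on the minus strand (193 kb). None of the 4 genes holds a small RNA that the count files list and GENCODE places. The 780 listed tRNA features were not placed on the genome, so they were not looked for. Here and below, a listed small RNA is one that GENCODE places. Fam19a1 does contain 2 annotated snRNA genes, Gm22971 and Gm26011, that are not among the features analysed here, and fragments of these would fall inside Fam19a1. Tmem163 overlaps its neighbour Mgat5 by 1791 bases. For stimulated cultures Mgat5 averaged 61.19 ± 2.71 CPM (EVs) against 46.91 ± 4.62 CPM (cells; SD, n = 3 each). For resting cultures its averages were 125.3 ± 34.7 CPM (EVs) and 37.05 ± 2.20 CPM (cells). A count over all of Mgat5 cannot show what the shared bases add to Tmem163, and this was not tested. CPM are counts per 1000000 counts of a library, scaled by TMM factors. The files hold 1 count per gene, so whether the fragments come from exons, introns or UTRs was not analysed here.

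These genes were chosen for a shared excess in EVs of stimulated cultures. For the 3 with the highest counts, the stretch from 250 bases before to 50 bases after the RefSeq start of transcription is shown (GRCm38.p6, 5′ to 3′). It was searched on both strands for 3 motifs, with overlapping matches allowed, and a match is in capitals.
Fam49a (chr12:12261927-12262226, plus strand): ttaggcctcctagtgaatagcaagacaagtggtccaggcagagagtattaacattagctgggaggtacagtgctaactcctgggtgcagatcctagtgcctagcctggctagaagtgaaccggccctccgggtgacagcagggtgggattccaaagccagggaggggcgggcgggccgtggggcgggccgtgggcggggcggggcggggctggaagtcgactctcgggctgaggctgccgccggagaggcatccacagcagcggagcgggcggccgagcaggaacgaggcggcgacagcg
Fam19a1 (chr6:96112904-96113203, plus strand): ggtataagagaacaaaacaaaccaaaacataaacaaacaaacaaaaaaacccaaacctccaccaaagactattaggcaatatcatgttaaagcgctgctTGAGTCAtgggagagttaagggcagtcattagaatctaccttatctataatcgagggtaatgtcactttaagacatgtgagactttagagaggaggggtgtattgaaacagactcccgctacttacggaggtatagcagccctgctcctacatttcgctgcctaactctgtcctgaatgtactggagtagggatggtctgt
Fgd5 (chr6:91978715-91979014, plus strand): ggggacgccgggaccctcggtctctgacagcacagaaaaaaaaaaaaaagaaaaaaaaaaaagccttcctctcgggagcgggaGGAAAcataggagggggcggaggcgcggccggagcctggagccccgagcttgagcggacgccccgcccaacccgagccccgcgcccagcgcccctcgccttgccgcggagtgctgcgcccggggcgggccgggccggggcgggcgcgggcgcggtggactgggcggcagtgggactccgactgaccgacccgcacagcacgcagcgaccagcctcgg
The AP-1 motif TGANTCA matched once in Fam19a1 and stands in 7.81% of 32851 mouse promoters of this length. The NFAT core GGAAA matched once in Fgd5 and stands in 61.3% of them, and TATAAA, which stands in 13.6%, matched in none of these 3. Promoter GC content was 66.3% for Fam49a, 42.0% for Fam19a1 and 71.3% for Fgd5, against a median of 52.7% over all promoters. RefSeq promoters were found for all 4 genes, and that of Tmem163 held none of the 3 motifs. The 3 sequences thus share no searched motif. These letters describe the windows and say nothing of where the counted fragments lie.

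Library totals ran from 1290918 to 3231626 counts. All 5 T cell and lymphocyte miRNA precursors on the marker list were among the listed features, with summed levels of 20833 to 269863 CPM. Markers of other cells were low: Mir126a of platelets and endothelium reached 30.2 to 163 CPM and Mir451a of erythroid cells 9.68 to 95.9 CPM, while Mir200c and Mir141 of epithelium together reached 35.1 to 145 CPM. Mir223 of myeloid cells, Mir122 of liver and the muscle and stromal markers were not among the listed features. Every listed feature had at least 4 counts in every library, so being unlisted does not show that such cells were absent. Counts in protein-coding and other long genes that hold no listed small RNA took 38.9 to 50.4% of a library in GW4869 EVs, 16.3 to 18.3% in GW4869 cells, 26.8 to 44.6% in DMSO EVs, 12.3 to 13.7% in DMSO cells, 25.1 to 28.3% in stimulated EVs, 16.0 to 20.5% in stimulated cells, 7.37 to 8.55% in resting EVs and 5.57 to 6.00% in resting cells. Among the EV groups these shares were lowest in resting EVs, where the 4 genes were also low. Stimulated cells had larger shares than resting EVs. Their mean levels were lower for Fam49a and Fam19a1 and higher for Fgd5 (13.36 against 6.171 CPM) and Tmem163 (9.416 against 8.550 CPM). Whether the shares bear on these levels was not tested. With the counts in these long genes as the scale, all 4 genes were still called higher in EVs than in cells, in GW4869 and in DMSO cultures. CPM are shares of a library, so more fragments of a gene and fewer of the other RNAs cannot be told apart, nor can fewer cells of a type and less RNA per cell.

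Fragments of 3 of the genes, Fam49a, Fam19a1 and Fgd5, were at 103.6 to 1508 CPM in EVs of all 3 kinds of stimulated culture (GW4869, DMSO and no addition), and at 3.917 to 25.39 CPM in all cells and in resting EVs. Tmem163 was highest in stimulated EVs and at intermediate levels in GW4869 and DMSO EVs. Together the 4 genes took 0.267 to 0.460% of the counts in GW4869 EVs, 0.0496 to 0.286% in DMSO EVs, 0.140 to 0.240% in stimulated EVs, and at most 0.00576% in any library of the other groups. All EV libraries lay above all cell libraries of the same culture for all 4 genes both with GW4869 and with DMSO, a gap seen for 38.1% and 35.4% of all features. The count was 4 of 4 in stimulated cultures, where it follows from the choice of genes (34.2% of all features), and 0 of 4 in resting cultures (27.6%).

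**Figure D1:**
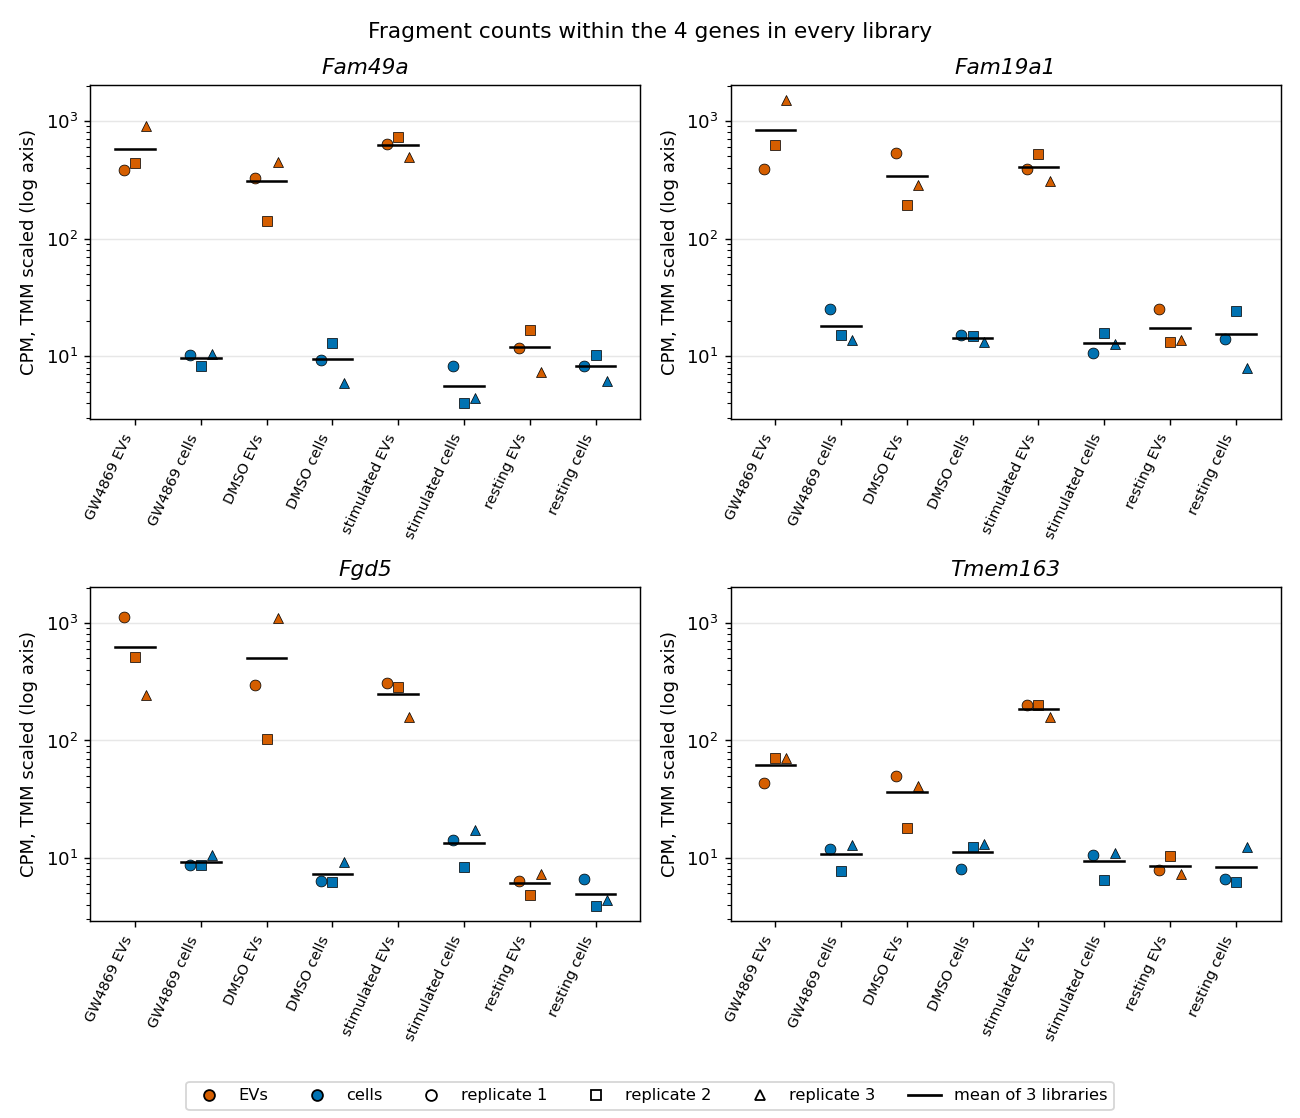
CPM (TMM scaled, log axis) of the 4 genes in each of the 24 libraries; points are libraries, shapes replicate numbers, colours EVs or cells, and lines group means. Fam49a, Fam19a1 and Fgd5 stood above 100 CPM in all 9 EV libraries of GW4869, DMSO and stimulated cultures, while Tmem163 did so in the 3 stimulated EV libraries.

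Fam49a, the Rac1-binding regulator, had 386.2, 437.6 and 914.2 CPM in GW4869 EVs, against 10.27, 8.300 and 10.53 CPM in GW4869 cells. It had 327.8, 141.2 and 451.3 CPM in DMSO EVs, against 9.265, 13.06 and 5.968 CPM in DMSO cells. In stimulated cultures it had 634.2, 731.4 and 497.7 CPM in EVs, against 8.188, 3.978 and 4.442 CPM in cells. In each of these 3 kinds of culture the lowest EV library lay far above the highest cell library. In resting cultures the libraries overlapped, with 11.85, 16.67 and 7.329 CPM in EVs and 8.266, 10.18 and 6.157 CPM in cells. By mean, the order was stimulated EVs (621.1 ± 117 CPM), GW4869 EVs (579.3 ± 291 CPM) and DMSO EVs (306.8 ± 156 CPM; SD, n = 3 each), and neighbours in this order overlapped. A clear gap followed, since the means of resting EVs and the 4 cell groups lay between 5.536 and 11.95 CPM and overlapped in turn.

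Fam19a1, the TAFA family gene, had 390.6, 624.7 and 1508 CPM in GW4869 EVs, against 25.39, 15.14 and 13.74 CPM in GW4869 cells. It had 536.2, 191.7 and 287.4 CPM in DMSO EVs, against 15.05, 14.76 and 13.26 CPM in DMSO cells. In stimulated cultures it had 392.2, 521.2 and 307.5 CPM in EVs, against 10.68, 15.91 and 12.59 CPM in cells. The GW4869 EVs held the highest library of all, replicate 3, and the widest spread of the 3 EV groups. In resting cultures Fam19a1 had 25.29, 13.20 and 13.61 CPM in EVs and 14.05, 24.28 and 7.916 CPM in cells, which overlapped. By mean, the order was GW4869 EVs (841.1 ± 589 CPM), stimulated EVs (407.0 ± 108 CPM) and DMSO EVs (338.4 ± 178 CPM; SD, n = 3 each), with neighbours overlapping. The other 5 groups averaged 13.06 to 18.09 CPM.

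Fgd5, the Cdc42 exchange factor, had 1119, 513.6 and 241.6 CPM in GW4869 EVs, against 8.645, 8.788 and 10.53 CPM in GW4869 cells. It had 296.2, 103.6 and 1096 CPM in DMSO EVs, against 6.369, 6.245 and 9.284 CPM in DMSO cells. In stimulated cultures it had 307.7, 284.5 and 159.0 CPM in EVs, against 14.24, 8.453 and 17.40 CPM in cells. No EV library of these cultures overlapped a cell library, but Fgd5 was the least even of the 4 genes among EV libraries. Its highest DMSO EV library was 10.6 times its lowest. Across the GW4869 EV libraries its order was the reverse of that of Fam19a1 and Fam49a: replicate 1 was its highest and their lowest. Resting EVs had 6.321, 4.863 and 7.329 CPM and resting cells 6.613, 3.917 and 4.398 CPM, which overlapped.

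Tmem163, the zinc transporter gene, had 43.89, 70.77 and 70.60 CPM in GW4869 EVs, against 11.89, 7.812 and 12.82 CPM in GW4869 cells. It had 49.76, 18.15 and 41.18 CPM in DMSO EVs, against 8.106, 12.49 and 13.26 CPM in DMSO cells. In stimulated cultures it had 200.5, 198.7 and 159.0 CPM in EVs, against 10.68, 6.464 and 11.11 CPM in cells. The stimulated EV libraries thus lay above every GW4869 and DMSO EV library, and those 6 lay above every cell library. Resting EVs had 7.902, 10.42 and 7.329 CPM and resting cells 6.613, 6.267 and 12.31 CPM, and these overlapped.

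The stated reason for the choice of the genes names only the stimulated and resting cultures. Whether the EV excess recurred was therefore tested in the GW4869 and DMSO cultures. Earlier results of these data were known when the genes were chosen, so the test is not shown to be independent of the choice. All 4 genes were higher in GW4869 EVs than in GW4869 cells, and 36.2% of the 4408 features and 52.2% of the 2477 protein-coding genes without a listed small RNA were called higher in this comparison, with 32.0% of all features lower (edgeR quasi-likelihood test, Benjamini-Hochberg adjusted p under 0.05 over all features). Fgd5 was higher by a log2 fold of 6.06 ± 0.66 (SE, adjusted p = 1.46e-08). Fam49a was higher by 5.90 ± 0.44 (adjusted p = 1.36e-11) and Fam19a1 by 5.55 ± 0.48 (adjusted p = 2.36e-10). These 3 log2 folds each exceeded those of at least 99.6% of the 2477 coding genes. Tmem163 was higher by 2.51 ± 0.33 (adjusted p = 3.21e-07), above 87.6% of the coding genes. The median log2 fold was 5.72 over the 4 genes, 0.81 over the coding genes and 0.18 over all features. Read against those shares, a call alone sets none of the 4 genes apart, and the sizes differ widely. Leaving out 1 replicate number in every group ended none of these calls. It changed the unlogged EV to cell ratio by more than 1.5 times for 2 genes. The log2 fold of Fam19a1 was 6.21 without replicate 1 and 4.74 without replicate 3. That of Fgd5 was 5.29 without replicate 1 and 6.66 without replicate 3.

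In DMSO cultures all 4 genes were again higher in EVs than in cells, where 37.0% of all features and 48.1% of the coding genes were called higher and 28.4% of all features lower. Fgd5 was higher by a log2 fold of 6.11 ± 0.68 (SE, edgeR adjusted p = 2.85e-08), Fam49a by 5.01 ± 0.43 (adjusted p = 3.34e-10) and Fam19a1 by 4.56 ± 0.47 (adjusted p = 8.24e-09). Tmem163 was higher by 1.71 ± 0.34 (adjusted p = 9.97e-05). The log2 fold of Tmem163 lay above 82.5% of those of the coding genes. The median log2 fold was 4.78 over the 4 genes, 0.72 over the coding genes and 0.29 over all features. With counts in the long genes without a listed small RNA as the scale, Tmem163 was higher by 0.79 (adjusted p = 0.0344), and the calls of all 4 genes held. They also held without any 1 replicate number, while the log2 fold of Fgd5 was 4.92 without replicate 3 and that of Fam49a 5.66 without replicate 2 and 4.32 without replicate 3.

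**Figure D2:**
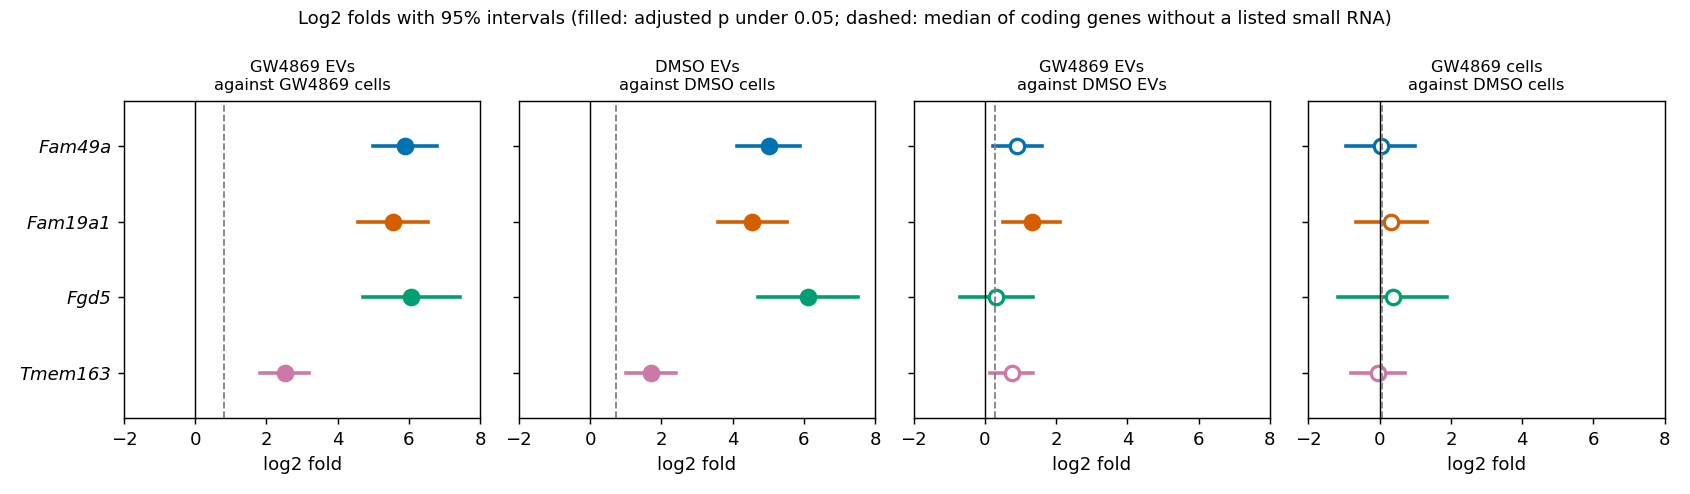
Log2 folds of the 4 genes in 4 comparisons (x axis; first-named group over the second), with 95% intervals; filled points passed the adjusted threshold and the dashed line is the median of the 2477 coding genes without a listed small RNA. Fgd5, Fam49a and Fam19a1 stood at 4.56 to 6.11 in both EV comparisons, and only Fam19a1 is filled among GW4869 against DMSO EVs.

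The differences between GW4869 EVs and DMSO EVs were small beside the gap between EVs and cells. In GW4869 EVs against DMSO EVs, 1 of the 4 genes passed the test, where 7.89% of all features and 12.7% of the coding genes were called higher and 9.69% of all features lower. Fam19a1 was higher by a log2 fold of 1.31 ± 0.39 (SE, edgeR adjusted p = 0.0230). The log2 folds of Fam49a (0.91 ± 0.33, adjusted p = 0.0583) and Tmem163 (0.75 ± 0.29, adjusted p = 0.0726) were positive but did not pass, and Fgd5 had 0.32 ± 0.50 (adjusted p = 0.662, 95% interval -0.70 to 1.35). The coding genes had a median log2 fold of 0.28. The libraries of both groups overlapped for all 4 genes, while 11.6% of all features had every GW4869 EV library above every DMSO EV library. The Fam19a1 call depended on the libraries kept in the fit, and it held in 9 of 13 alternative fits. Without replicate 1 of every group its log2 fold was 2.15 (edgeR adjusted p = 0.00262). Without replicate 3 of every group, which removes its highest GW4869 EV library, it was 0.60 (adjusted p = 0.360). Without replicate 2 it was 1.21 (adjusted p = 0.187), and without only DMSO EV replicate 2 it was 1.03 (adjusted p = 0.137), so that no gene was called in either. DMSO EV replicate 2 was the lowest DMSO EV library for all 4 genes and had 26.8% of its counts in long genes without a listed small RNA, the lowest of the group. The log2 fold of Fgd5 depended on the replicate number left out, with 2.16 (adjusted p = 0.00442) without replicate 3 and -0.67 (adjusted p = 0.443) without replicate 1. Tmem163 was called without replicate 1 (1.23, adjusted p = 0.0312).

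In cells, GW4869 against DMSO gave no call among the 4 genes by edgeR or DESeq2, and none had an unadjusted p under 0.05, where 2.88% of all features and 3.43% of the coding genes were called higher and 0.113% of all features lower. The log2 folds ran from -0.05 for Tmem163 to 0.37 for Fgd5, and the 95% intervals reached from -1.16 to 1.90 for Fgd5 and from -0.81 to 0.71 for Tmem163. Cell libraries held only 9 to 47 counts of a member in these groups, so changes of a few counts were not detectable at this depth. The test for a difference of the EV to cell ratio, GW4869 minus DMSO cultures, likewise called 0 of the 4 genes (edgeR and DESeq2; 0 at an unadjusted p under 0.05), where 1.75% of all features and 2.79% of the coding genes were called higher and 5.83% of all features lower. The differences of log2 ratio were 0.99 ± 0.62 for Fam19a1, 0.89 ± 0.58 for Fam49a, 0.80 ± 0.47 for Tmem163 and -0.04 ± 0.90 for Fgd5 (SE). Their intervals include 0 and also include differences of more than 1.5 on the log2 scale for all 4 genes, so the ratios are not shown to be alike.

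The stimulated and resting cultures chose the genes, and their folds are given for size only. In stimulated EVs against stimulated cells the log2 folds were 6.78 ± 0.46 for Fam49a, 4.97 ± 0.47 for Fam19a1, 4.29 ± 0.34 for Tmem163 and 4.21 ± 0.60 for Fgd5 (SE). In resting EVs against resting cells they lay between 0.03 for Tmem163 and 0.51 for Fam49a. In GW4869 EVs against stimulated EVs, Tmem163 had a log2 fold of -1.59 ± 0.29, while Fam49a had -0.10 ± 0.33, Fam19a1 1.05 ± 0.38 and Fgd5 1.32 ± 0.51. In DMSO EVs against stimulated EVs, Tmem163 had -2.34 ± 0.30, Fam49a -1.02 ± 0.33, Fam19a1 -0.26 ± 0.38 and Fgd5 0.99 ± 0.50. Both sets share the stimulated EV libraries. Tmem163 stayed negative in both sets without any 1 replicate number (-1.72 to -1.34 with GW4869, -2.58 to -1.98 with DMSO). The folds of the other 3 genes depended on the replicate number left out. Without replicate 3, Fgd5 in DMSO EVs against stimulated EVs was -0.61, and in GW4869 EVs against stimulated EVs Fam19a1 was 0.22 and Fam49a -0.65. Near 0, the sign changed too for Fam49a in GW4869 EVs without replicate 1 (0.14) and without replicate 2 (0.20), and for Fam19a1 in DMSO EVs without replicate 2 (0.23). The 12 DMSO and GW4869 libraries and the 12 resting and stimulated libraries may have been joined from separate count tables. That is inferred only from feature names on several lines. Of 10 such names, 3 stand on 4 lines each that list all pairs of 2 sets of values from each of these sets of libraries. Mir1839, Mir1949 and Mir3068 also have 2 sets of values in each, but not all pairs are listed. Whether these sets of libraries were prepared or sequenced apart is not given in the sources used here. Nor is the antibody dose of the DMSO and GW4869 cultures given there. In these folds the set, any difference of dose and the vehicle or inhibitor cannot be told apart.

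The 4 genes also differed in how they varied between libraries. Over the 24 libraries the Pearson correlation of log2 CPM was 0.98 for Fam49a with Fam19a1 and 0.85 for Tmem163 with Fgd5, the lowest pair; these points share the gap between EVs and cells. Within the 9 EV libraries of GW4869, DMSO and stimulated cultures, Fam49a had r = 0.76 with Tmem163 and r = 0.71 with Fam19a1. Fgd5 had r between -0.090 and 0.23 with the other 3. The features most like each member over the 24 libraries were other long genes. For Fam49a they were Fam19a1 (r = 0.977), Slc8a3 (0.954) and Dgkh (0.953). For Fam19a1 they were Fam49a (r = 0.977), Hecw2 (0.974) and Greb1 (0.962), and Greb1 had means of 368 CPM in GW4869 EVs and 99.9 CPM in DMSO EVs. For Fgd5 they were Sntg2 (r = 0.965), Cpeb3 (0.960) and Erg (0.957). For Tmem163 they were Galnt18 (r = 0.947), Rabgap1l (0.938) and Tspan18 (0.935). Rabgap1l had means of 192 CPM in stimulated EVs against 31.4 CPM in stimulated cells, and 60.0 CPM in DMSO EVs against 48.1 CPM in DMSO cells.

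The nearest listed genes on the chromosome had smaller folds than Fam49a, Fam19a1 and Fgd5. The listed gene after Fam49a, Nbas, lies 888 kb away and had log2 folds of 3.75 (GW4869 EVs against cells) and 1.84 (DMSO), both below those of Fam49a, while Smc6 on the other side had -0.28 and -0.43. The neighbours of Fgd5, Slc6a6 (220 kb) and Nr2c2 (15.4 kb), had 1.74 and -1.02 in GW4869 cultures. For Fam19a1, the neighbours Suclg2 and Frmd4b had 2.09 and 1.24. Tmem163, by contrast, had a neighbour with a higher GW4869 log2 fold than its own, Nckap5 with 3.19.

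Gene length moved with the EV excess. Over the 2477 coding genes without a listed small RNA, the Spearman correlation of gene length with the log2 fold of EVs against cells was 0.48 in GW4869 cultures, 0.38 in DMSO cultures, 0.44 in stimulated cultures and -0.06 in resting cultures, as a description across genes that share libraries. The genes were put in 4 length classes of about equal size, and from the shortest to the longest class the median log2 fold was -0.07, 0.62, 1.05 and 1.56 in GW4869 cultures and 0.04, 0.50, 0.95 and 1.12 in DMSO cultures. Fam49a and Fgd5 fall in length class 2 (60.0 to 128 kb), with log2 folds of 5.90 and 6.06 in GW4869 cultures against that class's median of 0.62. Fam19a1 falls in the longest class (263 to 2961 kb), with 5.55 against a median of 1.56. Tmem163 falls in length class 3, with 2.51 against 1.05.

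**Figure D3:**
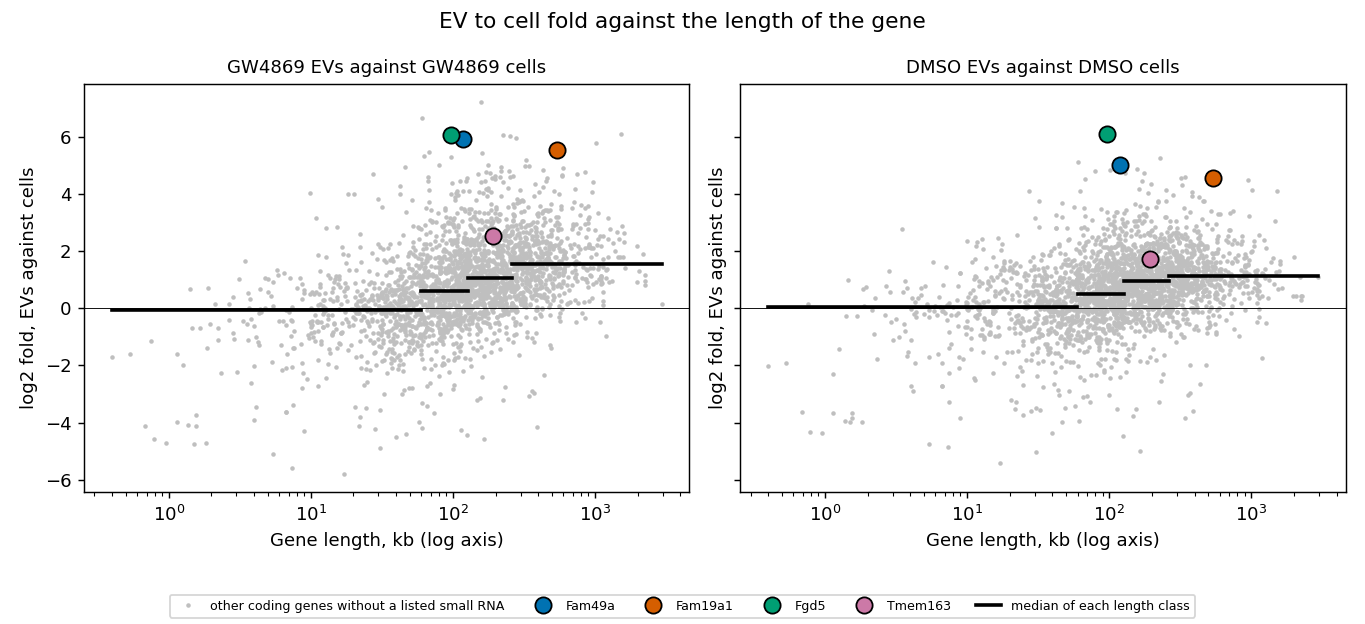
Log2 fold of EVs against cells (y axis) by gene length in kb (log x axis) for the 2477 protein-coding genes without a listed small RNA, in GW4869 and DMSO cultures; bars are medians of 4 length classes. Fam49a, Fam19a1 and Fgd5 lie far above the bars, and Tmem163 lies somewhat above, in both.

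Levels per 100 kb of gene set genes side by side only so far as CPM rises with length. Over the coding genes the Spearman correlation of length with CPM was 0.52 in GW4869 EVs, 0.46 in DMSO EVs and 0.42 in stimulated EVs. It was 0.15 in resting EVs and 0.12 to 0.21 in the cell groups. In these groups, dividing by length in itself lowers long genes. Per 100 kb of gene, Fgd5 had a mean of 643 CPM in GW4869 EVs and 513 CPM in DMSO EVs, and Fam49a had 488 and 258 CPM. Fam19a1 had 155 CPM per 100 kb in GW4869 EVs and 62.2 in DMSO EVs. The medians of the coding genes were 18.9 and 15.3 CPM per 100 kb in these groups. Tmem163 lay near these medians, with 32.0 CPM per 100 kb in GW4869 EVs and 18.8 in DMSO EVs. In stimulated EVs Fam49a led with 523 CPM per 100 kb, followed by Fgd5 with 258, Tmem163 with 96.4 and Fam19a1 with 74.8, all above the median of 14.1. In cells of every group the 4 genes had 2.40 to 13.8 CPM per 100 kb, and Fgd5 in GW4869 and stimulated cells was the exception to their lying below the group's median of coding genes. Fam19a1, the longest of the 4 genes, was the lowest in each cell group by this measure, while by CPM without regard to length it was the highest of the 4 in GW4869, DMSO and resting cells.

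**Figure D4:**
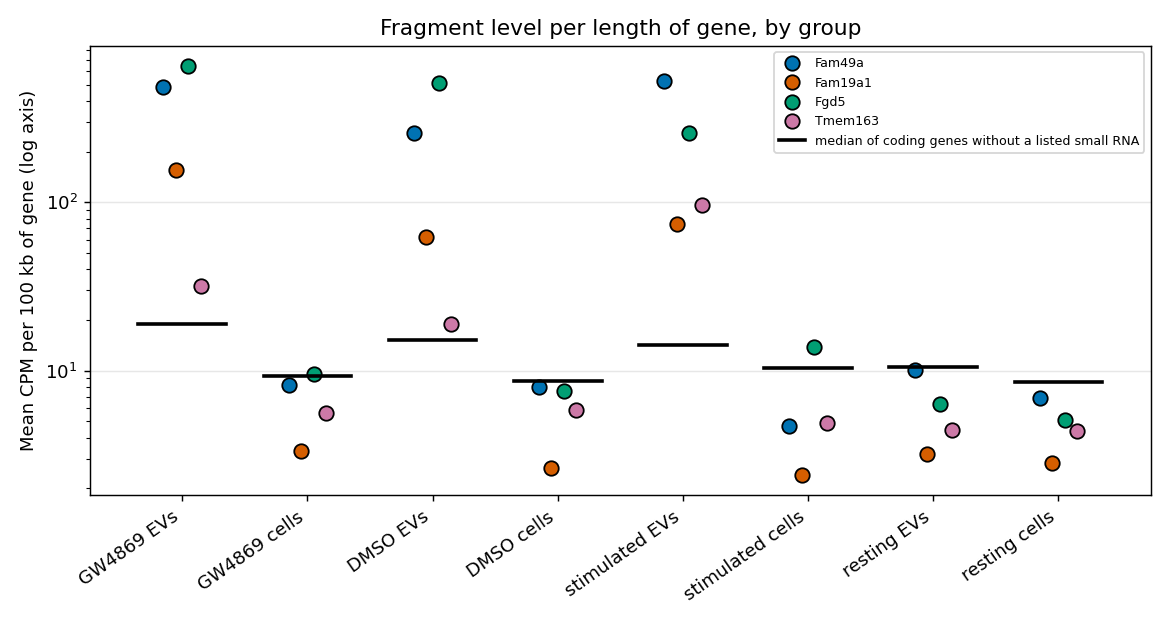
Mean CPM per 100 kb of gene (log axis) of the 4 genes in each group, with a line at the median of the 2477 coding genes without a listed small RNA. In EVs of GW4869, DMSO and stimulated cultures all 4 genes lie above the line, Tmem163 by the least in DMSO EVs.

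Other genes of the pathways of the 4 members were counted to see whether their fragments also rose. Of 15 other genes of the Rac and WAVE list in the files, 8 were higher and 1 lower in GW4869 EVs than in GW4869 cells (median log2 fold 0.60), and 6 were higher and 1 lower in DMSO EVs than in DMSO cells (median 0.51), against medians of 0.81 and 0.72 over the coding genes. Of the coding genes, 52.2% were called higher in GW4869 EVs and 48.1% in DMSO EVs, and of all features 36.2% and 37.0%, so the list's counts are near the background. The largest were small beside Fam49a. In GW4869 cultures Tiam2, a Rac exchange factor, was higher by 2.15 ± 0.25 (SE, edgeR adjusted p = 3.54e-08) and Dock1, another, by 2.18 ± 0.34 (adjusted p = 5.12e-06). Tiam1 (1.11 ± 0.25), the Rac exchange factor gene Vav3 (1.22 ± 0.37) and the Arp2/3 subunit gene Actr2 (0.79 ± 0.22) were also higher, and Arpc2, a further Arp2/3 subunit gene, was lower (-1.23 ± 0.25). In DMSO cultures Actr2 was higher by 1.51 ± 0.23 (adjusted p = 3.12e-06), followed by Tiam2 (1.14 ± 0.26), Prex1 (0.87 ± 0.24), Elmo1 (1.15 ± 0.39) and Tiam1 (0.72 ± 0.25).

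Of 8 other genes of the FGD and Cdc42 list, 5 were higher in GW4869 EVs and 3 in DMSO EVs, and none was lower (median log2 folds 0.89 and 0.76). In the same comparisons 52.2% and 48.1% of the coding genes (36.2% and 37.0% of all features) were called higher, with coding gene medians of 0.81 and 0.72, so these 8 genes are not set apart. Dock8, a Cdc42 exchange factor of lymphocytes, was higher by 3.53 ± 0.34 in GW4869 EVs (SE, edgeR adjusted p = 1.36e-09) and by 1.47 ± 0.32 in DMSO EVs (adjusted p = 3.50e-04). Its level was 81.7 ± 2.85 CPM in GW4869 EVs against 7.10 ± 1.14 CPM in GW4869 cells (SD, n = 3). Cdc42bpb, a kinase that acts downstream of Cdc42, was higher by 2.57 ± 0.37 and 1.56 ± 0.36, and Dock9 was higher in DMSO EVs by 1.26 ± 0.35. Of 2 other TAFA genes in the files, Fam19a5 was lower in EVs, by -1.44 ± 0.30 in GW4869 cultures (adjusted p = 1.65e-04) and -1.83 ± 0.30 in DMSO cultures (adjusted p = 9.75e-06), and Fam19a2 was not called. Of 3 other zinc transport genes, Slc39a11 was higher, by 0.99 ± 0.24 and 1.20 ± 0.25. The lists were drawn up for these members, so the counts describe them and set no list apart.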

How the data were processed

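Small RNA libraries of 24 samples were analysed, 3 in each of 8 groups. The authors deposited whole-number read counts per annotated feature, 1 value per feature and library, per the file headers. Bowtie and the builds GRCm38 and mm10 are named in the submitters' processing notes; the aligner's settings, trimming, treatment of reads with several alignments and use of strand are not given in the sources used here. Each file held 4441 lines, of which 33 repeated others and were dropped, and no count was below 4, so features with fewer reads in a library had been left out.

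The deposited counts were fitted with edgeR 4.0.16 in R 4.3.3 (TMM scaling, 1 quasi-likelihood model of 8 groups without a replicate block). filterByExpr (minimum count 10) removed 0 of 4408 features, so all 4 genes passed. A feature was called where its p, adjusted by Benjamini-Hochberg over all features, was under 0.05. SEs came from the same model, and log2 CPM used a prior count of 2. The code was tested on simulated data. Coordinates and lengths came from GENCODE M21, promoters from RefSeq.

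The members and gene lists were chosen with earlier results of these data known. The 4 genes are named in full; a further gene of the selection and its pathway list are not reported here. Also named are the 3 features most correlated with each over the 24 libraries, and listed genes that passed the test, up to 10 per comparison by adjusted p. Alternatives were DESeq2 1.42.0, other scalings and filters, fewer groups, leaving out each replicate, and a replicate block. Leaving out DMSO EV replicate 2 and scaling to long genes were added after seeing the data. No 2 libraries of a group agreed within sampling noise (lowest chi-square per degree of freedom 3.54).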

Additional observations from a re-analysis of the deposited data

How the results depend on the processing

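Under all 13 alternatives Fam49a, Fam19a1, Fgd5 and Tmem163 were called higher in both GW4869 and DMSO cultures, with log2 folds in GW4869 and DMSO cultures of 5.27 to 6.66 and 4.12 to 5.68 for Fam49a, 4.74 to 6.29 and 3.61 to 5.20 for Fam19a1, 5.29 to 6.85 and 4.92 to 6.81 for Fgd5, and 1.92 to 3.27 and 0.79 to 2.35 for Tmem163. The 13 alternatives include the fit with no filter, which could not differ from the main fit because the filter removed 0 of 4408 features. Scaling to long genes moved the median of all features by -0.56 in GW4869 and -0.90 in DMSO EVs against cells, and library totals moved it by 0.76 and 0.59. The share of higher calls in DMSO EVs against cells was then 23.3% on the long-gene scale and 74.8% with library totals, against 56.6% with TMM; in GW4869 cultures it was 36.1%, 74.9% and 53.0%.

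In GW4869 EVs against DMSO EVs the calls of the 4 genes depended on the processing. Of the 4 genes, 2 were called with RLE size factors, library totals, a mean CPM of at least 20 and long-gene scaling, 0 with only the 12 DMSO and GW4869 libraries or without DMSO EV replicate 2, and 0 to 2 over the fits without 1 replicate number. Fam49a was called with RLE size factors (0.95), library totals (1.15) and a mean CPM of at least 20 (1.02), and Tmem163 on the long-gene scale (0.80). Fam19a1 was not called with the 12 libraries (1.31, adjusted p = 0.0743). Fgd5 turned negative without replicate 2 (-0.03) and without DMSO EV replicate 2 (-0.16), and ran from -0.67 to 2.16 over the fits without 1 replicate. Features called were 775 with TMM, 240 with only 12 libraries, 253 without DMSO EV replicate 2, and 99 to 775 without 1 replicate number. The split of higher calls was 44.9% with TMM, 84.1% with library totals and 59.2% on the long-gene scale.

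In GW4869 against DMSO cells, 132 features were called with TMM, 65 with RLE, 217 with library totals, 6 with only 12 libraries, 10 on the long-gene scale, 173 without DMSO EV replicate 2 and 2 to 21 without 1 replicate number. Uncalled log2 folds near 0 changed sign there: Fam49a was -0.06 with RLE and with DESeq2, -0.04 with a mean CPM of at least 20, -0.11 with 12 libraries, -0.25 on the long-gene scale and -0.31 to 0.44 without 1 replicate; Tmem163 was 0.08 with library totals and -0.31 to 0.22 without 1 replicate. For the difference of EV to cell ratio, 334 features were called with TMM, 162 with library totals, 45 with 12 libraries, 229 without DMSO EV replicate 2 and 47 to 199 without 1 replicate number. Fgd5 there was 0.06 with RLE, 0.03 with library totals, 0.09 with a mean CPM of at least 20, 0.07 with DESeq2, 0.13 with 12 libraries, 0.12 with the replicate block, 0.33 on the long-gene scale and -1.0 to 1.74 without 1 replicate. The causes were not tested.

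Among the DMSO and GW4869 libraries, those with the same replicate number did not all vary together (correlations of deviations -0.373 to 0.162). Pairs with unlike numbers ran from -0.256 to 0.483, so these correlations cannot show whether a number stands for a shared mouse or culture. The numbers are used here only to name libraries. With a replicate block, 4, 4, 1, 0 and 0 members were called in the 5 comparisons, the same as without, and the block called 2999, 2877, 770, 118 and 322 features, against 3007, 2884, 775, 132 and 334.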
